A study of Mus musculus with 104 samples.

Results

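The genes described here are 7 transcription factors of GABAergic neuron development, namely Dlx1, Dlx2, Dlx5, Dlx6, Gata2, Gata3 and Tal1, out of 18193 genes with a probe set of a single symbol. They were chosen by name, and each was read from 1 probe set, the brightest over all arrays among those assigned to that gene alone. Gata2 had 2 such probe sets and each of the other 6 genes had 1.

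GABAergic neurons make and release the inhibitory transmitter GABA, and different transcription factors specify them along the length of the neural tube. In the forebrain the Dlx homeobox factors act in progenitors and young neurons of the ganglionic eminences and of parts of the diencephalon. Dlx1 and Dlx2 lie next to each other in the genome and share enhancers, as do Dlx5 and Dlx6, and Dlx1 and Dlx2 act upstream of Dlx5 and Dlx6. In the midbrain, hindbrain and spinal cord the zinc-finger factors Gata2 and Gata3 and the helix-loop-helix factor Tal1 select the GABAergic fate in several neuron groups. Gata2 also acts in gonadotropes and thyrotropes of the anterior pituitary, and all 3 of these factors act in blood cells, Gata2 and Tal1 also in endothelium.

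The measurements are log2 levels on Affymetrix mouse arrays, 2 for each of 52 regions. All samples came from male Balb/c mice aged 7 to 8 weeks, which arrived at 5 weeks and adapted for 2 weeks to 12 h of light and 12 h of darkness. Tissue was punched from brain slices of 0.5 mm under that cycle or in constant darkness, and the labels do not say which arrays came from which lighting. RNA of each region was pooled over 6 time points taken every 4 h over 1 day, so no time course and no single animal can be read from an array. The labels name no transgene and no drug. Whether both arrays of 1 region stem from different animals is not stated, so p-values measure only the spread within such pairs of arrays, which may be technical. A punch holds many cell types, and fewer cells of a type cannot be told apart from less RNA per cell.

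Over the 18193 genes, r within a pair of arrays was 0.972 to 0.998, and no 2 columns were identical. Array medians ran from 7.33 to 7.46. The levels of 18 hybridisation control probe sets split the regions into a set of 21 at 9.65 to 10.49 and a set of 30 at 10.84 to 11.47. The POA/BF arrays, from the preoptic area and basal forebrain, could not be placed in either set because their control rows did not line up with the probe set names. The retina arrays held the pituitary hormone transcript Gh at 14.69, beside 14.70 in the pituitary. The arrays labelled lateral hypothalamus had Pmch at 7.70 and Hcrt at 7.55, ranks 14 and 13 of 52, although these transcripts define neurons of that region. With the POA/BF, retina and lateral hypothalamus arrays left out, all 7 genes kept their calls in the test over all regions.

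For the 3 genes whose promoter window in RefSeq (build GRCm38.p6) begins at the outermost start of the gene, the 250 bases before that start are shown to give the sequence from which these transcripts start. Of the 7 genes, 5 had a window, and Dlx5 and Dlx6 are named only. Motifs were searched on both strands. TAATTA is read by homeodomain factors such as the Dlx proteins. For zinc-finger factors such as Gata2 and Gata3 the search used AGATAA, the form TGATAA with another first base, the form AGATAG with another last base, and, with both of these changes, TGATAG. For helix-loop-helix factors such as Tal1 the E-box CAGATG was searched, and so was the E-box CAGCTG, which like the homeodomain motif reads the same on both strands. No 2 matches overlapped in the windows shown, and capitals mark the matches, 5′ to 3′ on the strand of the gene.
Dlx2, chr2:71546755-71547004, minus strand: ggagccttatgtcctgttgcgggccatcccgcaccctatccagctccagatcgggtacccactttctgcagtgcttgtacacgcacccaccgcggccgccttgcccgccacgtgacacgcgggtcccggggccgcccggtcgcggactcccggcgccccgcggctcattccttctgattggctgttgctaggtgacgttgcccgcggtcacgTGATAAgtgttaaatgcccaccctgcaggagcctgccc
Tal1, chr4:115056176-115056425, plus strand: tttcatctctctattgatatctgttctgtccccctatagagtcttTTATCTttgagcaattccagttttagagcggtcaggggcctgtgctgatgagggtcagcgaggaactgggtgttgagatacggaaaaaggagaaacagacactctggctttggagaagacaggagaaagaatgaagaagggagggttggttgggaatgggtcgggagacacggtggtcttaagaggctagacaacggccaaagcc
Gata2, chr6:88193641-88193890, plus strand: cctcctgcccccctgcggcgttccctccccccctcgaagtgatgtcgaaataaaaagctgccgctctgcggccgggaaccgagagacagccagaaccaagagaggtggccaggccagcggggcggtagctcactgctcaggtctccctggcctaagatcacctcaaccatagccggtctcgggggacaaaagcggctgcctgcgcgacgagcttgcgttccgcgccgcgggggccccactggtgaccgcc

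The Dlx2 window holds TGATAA on the gene's strand, its first base 38 bases before the start, and 7.94% of all 32851 windows of this length hold that motif. The Tal1 window holds AGATAA on the opposite strand, printed as its reverse complement and beginning 205 bases before the start, and 9.99% of all windows hold that motif. At least 1 of the 4 GATA motifs occurs in 26.54% of all windows. The Gata2 window shown holds none of the 7 motifs. Over all 7 windows of the 5 genes, no match was found for TAATTA, present in 4.84% of all windows, for CAGATG, present in 14.44%, or for CAGCTG, present in 13.0%. These matches are a description of letters, and binding was not measured.

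Across the 52 regions all 7 genes differed between regions in an F test over all regions with a range of at least 2-fold (limma, Benjamini-Hochberg adjusted p under 0.05). Of all genes tested, 60.3% passed the same rule, so the count of 7 of 7 says little on its own. The size of the range separated them. Dlx1 had the widest range of region means, 5.59 on the log2 scale (48.3-fold, adjusted p = 2.28e-43, n = 2 arrays per region), followed by Dlx2 at 4.38 (20.9-fold). Dlx6 spanned 3.31, Dlx5 3.23, Tal1 2.91, Gata2 2.53 and Gata3 2.30. Within the 30 regions with high hybridisation controls, which do not include the pituitary, Gata2 spanned 0.85 and no longer reached 2-fold.

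**Figure D1:**
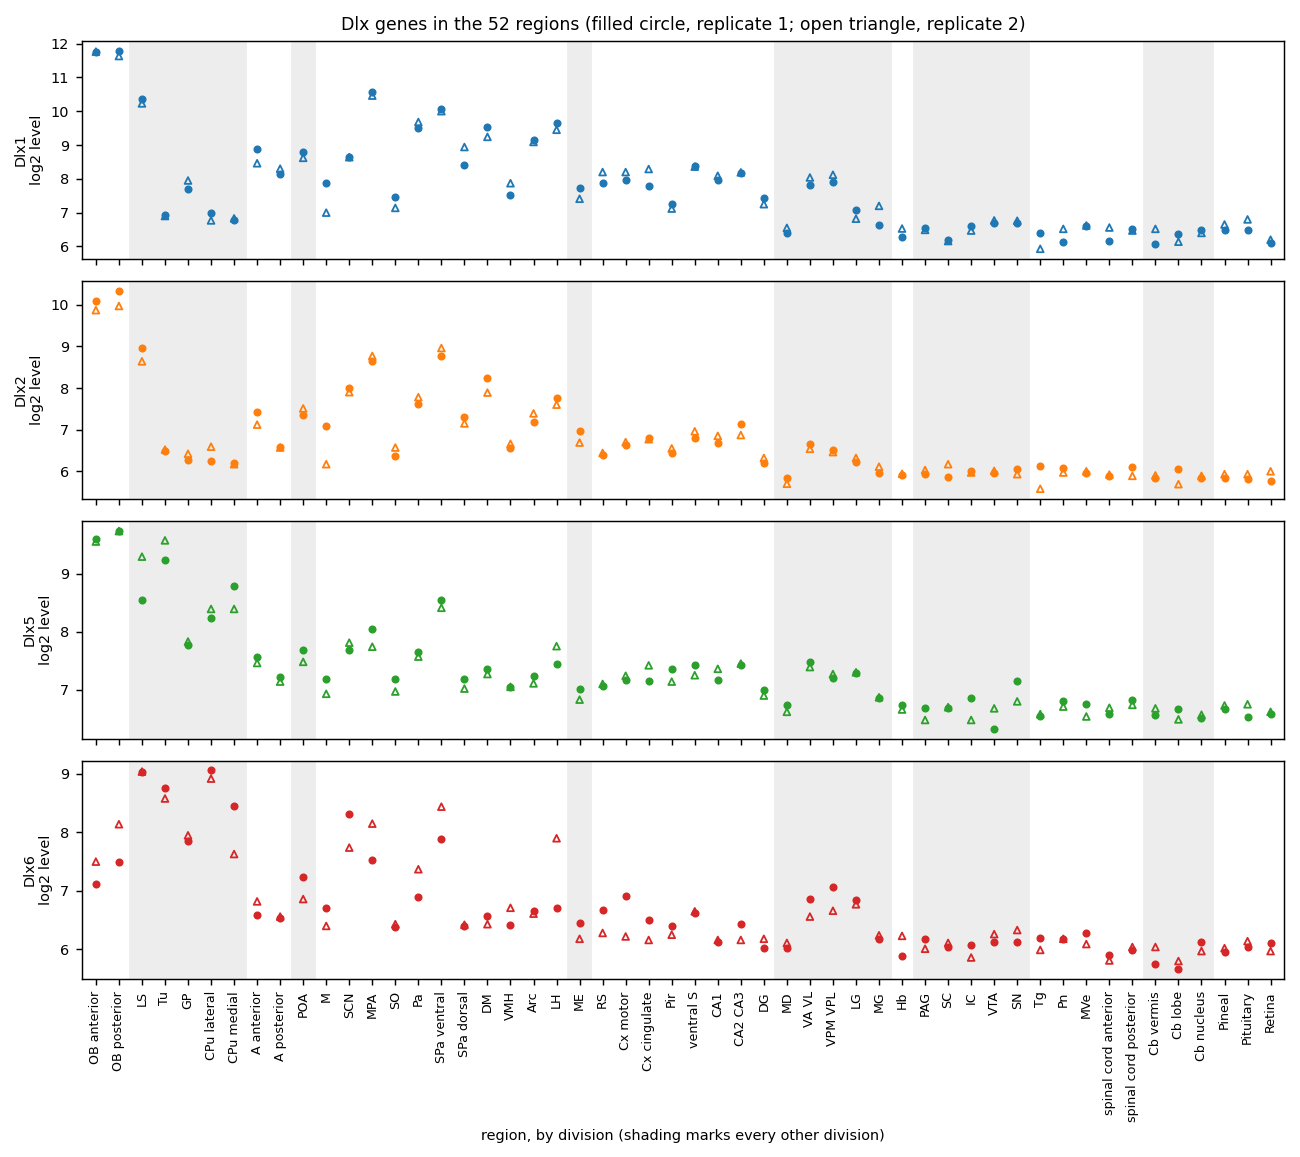
Log2 level of Dlx1, Dlx2, Dlx5 and Dlx6 (y axes) in each of the 52 regions (x axis, grouped by division), with both arrays of a region as a filled circle and an open triangle. Dlx1 and Dlx2 peak in the olfactory bulb at 11.75 and 10.16, whereas Dlx6 peaks in the lateral septum at 9.04.

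Dlx1, the homeobox factor that also maintains some adult cortical interneurons, was highest in the olfactory bulb. It read 11.74 and 11.76 on the 2 arrays of the anterior bulb and 11.79 and 11.63 on those of the posterior bulb. These 2 regions could not be ordered, since their arrays overlapped. The medial preoptic area followed at 10.58 and 10.46, 1.19 below the posterior bulb and without overlap.
The lateral septum read 10.37 and 10.23 and the ventral subparaventricular zone a mean of 10.03. The paraventricular hypothalamic nucleus at 9.59, the lateral hypothalamus at 9.54 and the dorsomedial nucleus at 9.39 came next, with arrays of neighbours in that order overlapping. In all, 13 of 52 regions lay at least 1 log2 unit above the gene's median region of 7.39, among them the arcuate nucleus at 9.13, the POA/BF sample at 8.70 and the suprachiasmatic nucleus at 8.64. The lowest region means were in the retina at 6.15, the dorsal tegmental nucleus at 6.16 and the superior colliculus at 6.17.

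Dlx2, which acts in progenitors together with Dlx1, gave nearly the same order at lower values of its own probe set. It read 10.34 and 9.97 in the posterior bulb and 10.10 and 9.87 in the anterior bulb. The ventral subparaventricular zone at 8.77 and 8.96, the lateral septum at 8.96 and 8.64 and the medial preoptic area at 8.65 and 8.77 formed the next group, whose arrays overlapped. The dorsomedial nucleus at 8.06 and the suprachiasmatic nucleus at 7.95 stood apart from both the group above and the regions below them. In total 9 of 52 regions lay at least 1 unit above the median region of 6.48. The mammillary body, rank 20 of 52 for Dlx2, had arrays far apart, at 7.09 and 6.17.

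Dlx5 and Dlx6, which act later than Dlx1 and Dlx2 in differentiating neurons, were high in the striatum, where Dlx1 and Dlx2 were low. Dlx5 read 9.74 and 9.73 in the posterior bulb, 9.60 and 9.55 in the anterior bulb and 9.24 and 9.57 in the olfactory tubercle, a ventral striatal region. The lateral septum read 8.55 and 9.29, the medial caudate putamen 8.78 and 8.39, the ventral subparaventricular zone 8.54 and 8.41 and the lateral caudate putamen 8.23 and 8.39. From the anterior bulb down to the ventral subparaventricular zone, each region overlapped the next in this order. Dlx5 lay at least 1 unit above its median region of 7.14 in 7 regions.

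Dlx6 had a different leader. It read 9.04 on both arrays of the lateral septum, 9.06 and 8.92 in the lateral caudate putamen and 8.76 and 8.58 in the olfactory tubercle. The first 2 of these could not be ordered, and the tubercle lay below both without overlap. In the olfactory bulb, where Dlx5 peaked, Dlx6 read 7.5 and 8.14 in the posterior part and 7.11 and 7.5 in the anterior part, ranks 9 and 10 of 52. Dlx6 also had the widest spread between the 2 arrays of a region, with 6.70 and 7.90 in the lateral hypothalamus and 8.45 and 7.63 in the medial caudate putamen.

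In the same striatal regions Dlx1 read 6.92 and 6.90 in the tubercle, 6.98 and 6.77 in the lateral caudate putamen and 6.77 and 6.83 in the medial caudate putamen. These are ranks 32, 33 and 34 of 52 for Dlx1, whereas Dlx5 ranked 3, 7 and 5 and Dlx6 ranked 3, 2 and 5 there. The globus pallidus, a nucleus of the basal ganglia, read 7.82 for Dlx1, 6.35 for Dlx2, 7.80 for Dlx5 and 7.90 for Dlx6. The lateral septum had the highest Dlx1, Dlx2 and Dlx6 of the 5 subpallial regions, at 10.30, 8.80 and 9.04, and a Dlx5 of 8.92.

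Comparisons between groups of regions were made in 1 limma fit over all arrays. A gene was called where it differed by at least 1 log2 unit (2-fold) with an adjusted p under 0.05. Standard errors (SE) come from the spread within array pairs, not from that among regions. Results were therefore also computed with region means as the samples, and that value is given where it changed the call of a member or moved a list's count by over 1.5 times.

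**Figure D2:**
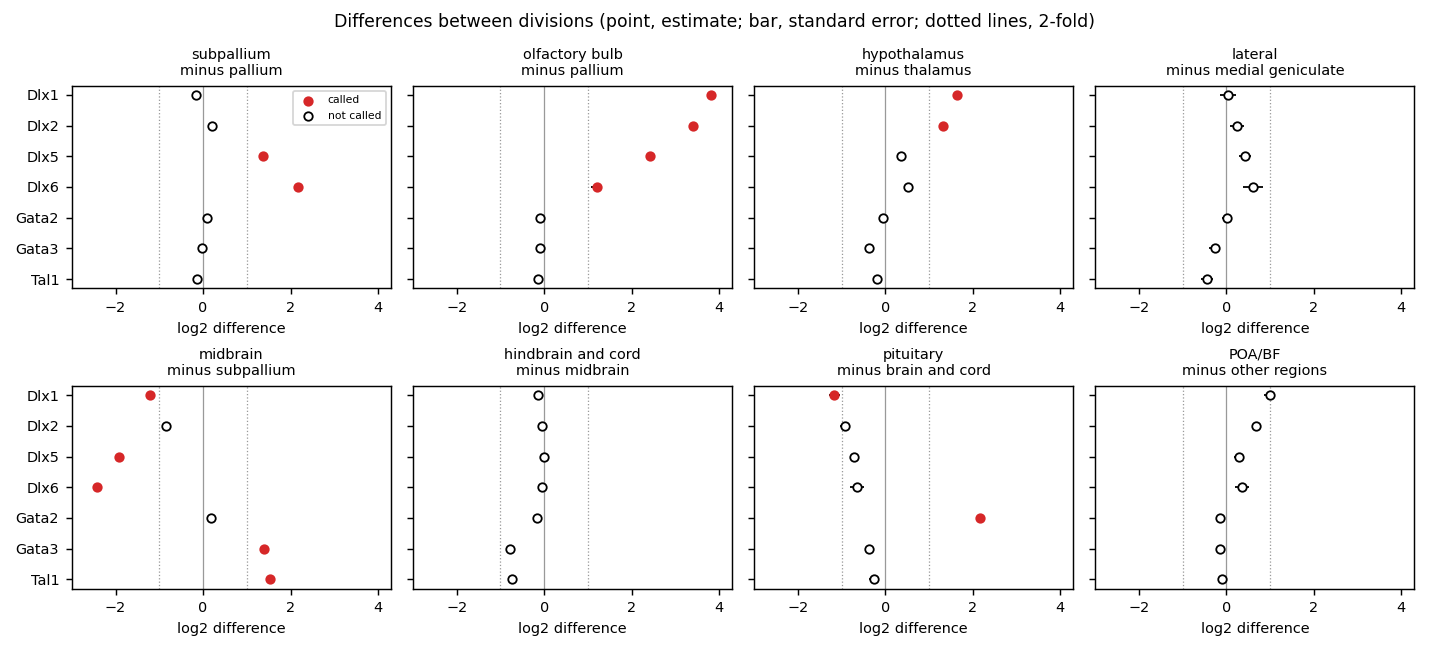
Log2 difference between groups of regions (x axes) for each of the 7 genes (y axes) in 8 comparisons, with the estimate as a point and the SE as a bar; filled points were called. Dlx5 and Dlx6 differ between subpallium and pallium (1.38 and 2.17) while Dlx1 and Dlx2 do not reach 2-fold (-0.17 and 0.19, and -0.81 and -0.29 without the lateral septum).

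The first comparison set 5 subpallial regions (lateral septum, olfactory tubercle, globus pallidus, lateral and medial caudate putamen) against 8 pallial regions (retrosplenial, motor, cingulate and piriform cortex, ventral subiculum, CA1, CA2/CA3 and dentate gyrus). These subpallial regions derive from the ganglionic eminences and the septum, where Dlx genes act in development. Dlx6 rose by 2.17 ± 0.09 (SE, 10 against 16 arrays, adjusted p = 8.51e-30, limma), with subpallial arrays from 7.63 to 9.06 and pallial arrays from 6.02 to 6.92. Dlx5 rose by 1.38 ± 0.06 (adjusted p = 1.98e-30), with 7.77 to 9.57 against 6.90 to 7.45. Neither gene's arrays overlapped between the groups, though the share of all genes without overlap was not computed.
Dlx1 differed by -0.17 ± 0.08 and Dlx2 by 0.19 ± 0.06, both short of 2-fold. These values rest on the lateral septum, since without it the differences were -0.81 for Dlx1 and -0.29 for Dlx2. Their subpallial arrays ran from 6.77 to 10.37 for Dlx1 and from 6.17 to 8.96 for Dlx2, with the lateral septum at the top of both ranges. Gata2 at 0.09, Gata3 at -0.03 and Tal1 at -0.15 were not called. In all, 2 of the 7 were called higher and none lower, against 0.879% of all genes called higher and 1.38% called lower. Without the fold threshold Dlx2 also passed as higher (adjusted p = 0.00958, limma) and Tal1 as lower (adjusted p = 0.0269). With region means as the samples their adjusted p was 0.843 and 0.277 (limma). The share of all genes passing without the fold threshold was not computed.

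The olfactory bulb, which receives new GABAergic interneurons throughout life, was set against the same pallial regions. All 4 Dlx genes were called higher. Dlx1 rose by 3.82 ± 0.10 (14.1-fold, adjusted p = 9.32e-40, limma, 4 against 16 arrays), with 11.63 to 11.79 against 7.12 to 8.37. Dlx2 rose by 3.41 ± 0.09, with 9.87 to 10.34 against 6.20 to 7.14.
Dlx5 rose by 2.43 ± 0.08, with 9.55 to 9.74 against 6.90 to 7.45. Dlx6 rose by 1.20 ± 0.13, with 7.11 to 8.14 against 6.02 to 6.92, and by 0.94, short of 2-fold, without the posterior bulb. No arrays overlapped for any of the 4, though the share of all genes without overlap was not computed. Gata2, Gata3 and Tal1 differed by -0.09, -0.10 and -0.15 and were not called. The background was 3.08% of all genes called higher and 1.80% called lower.

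Other factors of forebrain GABAergic lineages went both ways in the bulb. Of 24 measured, 7 were called higher and 2 lower, with a list median of -0.11 beside -0.05 over all genes. With region means as the samples, 6 were called higher and 1 lower. Sp8, a zinc-finger factor of bulb interneurons, rose by 4.54 ± 0.08, Meis2 by 3.31 ± 0.11, the noncoding RNA Dlx6os1 by 2.72 ± 0.09 and Pax6, a factor of dopaminergic bulb neurons, by 2.53 ± 0.11. Of the 3 measured genes of GABA synthesis and release, all were called higher, the vesicular transporter Slc32a1 by 1.84 ± 0.15, the synthetic enzyme Gad1 by 1.5 ± 0.16 and Gad2 by 1.19 ± 0.13. Neuroblast markers moved with them, 5 of 7 called higher, Sp8 and Dlx6os1 among them, with a mean level of 9.97 to 10.11 in the bulb and 7.66 to 8.06 in the pallium. Astrocyte markers were called higher in 3 of 5 cases (mean level 11.45 to 11.55 against 10.05 to 10.78; 2 with region means as the samples) and meningeal and fibroblast markers in 4 of 8 (8.33 to 8.59 against 7.13 to 7.99). Glutamatergic markers were called lower in 3 of 6 cases (7.22 to 7.55 against 8.67 to 9.62), and in 1 with region means as the samples. The part of these 4 lists in the Dlx differences was not tested. Doublecortin (Dcx) rose by 2.40 ± 0.07.

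In the subpallium against the pallium, 5 of those 24 factors were called higher and 3 lower (list median 0.00, all genes 0.00). Isl1, a factor of striatal projection and cholinergic neurons, rose by 3.52 ± 0.10, Foxp2 by 2.96 ± 0.10 and Lhx8, a factor of forebrain cholinergic neurons, by 2.46 ± 0.08, while Nr2f1 fell by 2.81 ± 0.07. Slc32a1 rose by 1.9 ± 0.11 and Gad2 by 1.69 ± 0.09, whereas Gad1 differed by 0.90 ± 0.12. Markers of medium spiny neurons, the main GABAergic neurons of the striatum, were called higher in 5 of 6 cases, with a mean list level of 9.08 to 12.31 in the subpallium and 8.54 to 9.60 in the pallium. Glutamatergic markers were called lower in 5 of 6 cases. The part of either list in the Dlx5 and Dlx6 differences was not tested.

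The third comparison set 11 hypothalamic regions against 5 thalamic regions, 2 parts of the diencephalon. Here Dlx1 and Dlx2 were the members called. Dlx1 rose by 1.65 ± 0.07 (3.13-fold, adjusted p = 6.85e-30, limma, 22 against 10 arrays) and Dlx2 by 1.33 ± 0.06 (adjusted p = 5.39e-29). Both calls held with region means as the samples (adjusted p = 0.0172 and 0.00968), and without the arrays labelled lateral hypothalamus. The groups overlapped, since hypothalamic Dlx1 arrays ran from 7.00 to 10.58 with a median of 9.13, and thalamic arrays from 6.41 to 8.12 with a median of 7.14.
Dlx5 at 0.37 ± 0.05 and Dlx6 at 0.52 ± 0.09 stayed short of 2-fold, and Gata3 differed by -0.36 ± 0.05 and Tal1 by -0.19 ± 0.05. Without the fold threshold these 4 differences passed, 4 genes higher and 2 lower in all. The share of all genes passing without it was not computed. With region means as the samples the adjusted p was 0.22 for Dlx5, 0.232 for Dlx6, 0.214 for Tal1 and 0.00325 for Gata3 (limma). With the fold threshold, 2.13% of all genes were called higher and 2.14% lower. Within the hypothalamus the values were uneven: Dlx1 reached 10.52 in the medial preoptic area but 7.70 in the ventromedial nucleus. Of the 3 genes of GABA synthesis and release none was called (median difference 0.64). Oligodendrocyte markers were called lower in the hypothalamus in 3 of 5 cases, Mog, Mobp and Mag, with a mean list level of 9.77 to 12.68 against 11.44 to 12.60, and 1 was called with region means as the samples. Their part in the Dlx1 and Dlx2 differences was not tested.

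Within the thalamus the lateral geniculate body was set against the medial geniculate nucleus, 2 arrays each. No member was called, against 0.154% of all genes called higher and 0.280% called lower. The 2 Dlx6 arrays of the lateral geniculate read 6.84 and 6.77 and those of the medial 6.18 and 6.24, a difference of 0.60 ± 0.23 (adjusted p = 0.143, limma). Tal1 read 6.74 on both lateral arrays and 7.24 and 7.12 on the medial ones, a difference of -0.44 ± 0.14 (adjusted p = 0.0534). All member differences stayed under 2-fold, and none had an adjusted p under 0.05 (limma). Gad1 rose by 1.33 ± 0.29, and Isl1 and Meis2 were the 2 of 24 forebrain factors called.

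The POA/BF sample, which gives the series its title, was set against the mean of the other 51 regions, and no member was called. Its Dlx1 arrays read 8.79 and 8.62, rank 10 of 52, and Dlx1 differed by 0.99 ± 0.13 (adjusted p = 1.86e-08, limma), just under the threshold. Dlx1 passed 2-fold without the second POA/BF array, at 1.08, and without any 1 of 13 other regions, at 1.00 to 1.07, and with region means as the samples its adjusted p was 1. Dlx2 read 7.34 and 7.51 and differed by 0.69 ± 0.11, Dlx6 by 0.35 ± 0.16 and Dlx5 by 0.28 ± 0.10. Gata2 at -0.14, Gata3 at -0.15 and Tal1 at -0.10 were not called. The background was 1.53% of all genes called higher and 0.115% lower. The separate medial preoptic sample of the hypothalamic set read 10.58 and 10.46 for Dlx1, above both POA/BF arrays.
Among 24 other forebrain factors 5 were called higher in the POA/BF and none lower, with Lhx8, Lhx6, Maf, Isl1 and Nr2f2 on that list. Meningeal and fibroblast markers were called higher in 7 of 8 cases there, at a mean level of 10.23 against 7.00 to 11.50 elsewhere, and their part was not tested. With region means as the samples none of these 5 factors and 7 markers was called in limma, where 1 of all genes was called higher and 124 were higher at an unadjusted p under 0.05 and 2-fold.

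The 4 Dlx genes fell into the 2 genomic pairs over the 52 region means, given here as a description, since the points share arrays and platform. Dlx1 and Dlx2 correlated at Pearson r = 0.96 (Spearman rho 0.95), and at 0.95 without both bulb regions, which lie farthest from the Dlx1 median. Dlx5 and Dlx6 correlated at 0.85 (rho 0.91), and at 0.93 without the bulb. Across the pairs the values were lower. Dlx1 with Dlx5 gave 0.72, which went to 0.57 without the bulb, and Dlx1 with Dlx6 gave 0.55, which went to 0.54.
Gata3 and Tal1 correlated at 0.92, while rho was 0.47, and most regions sat at the low end of both genes. Gata2 correlated with Gata3 at 0.14 and with Tal1 at 0.19, and at 0.43 and 0.45 without the pituitary and pineal gland. Every Dlx gene correlated negatively with every one of Gata2, Gata3 and Tal1, from -0.42 to -0.22. Correlations with Gad1 were 0.39 for Dlx1, 0.39 for Dlx2, 0.40 for Dlx6, 0.43 for Dlx5, 0.16 for Gata3 and 0.06 for Tal1, while Gata2 gave -0.52, which went to -0.11 without the pituitary and pineal gland.

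**Figure D3:**
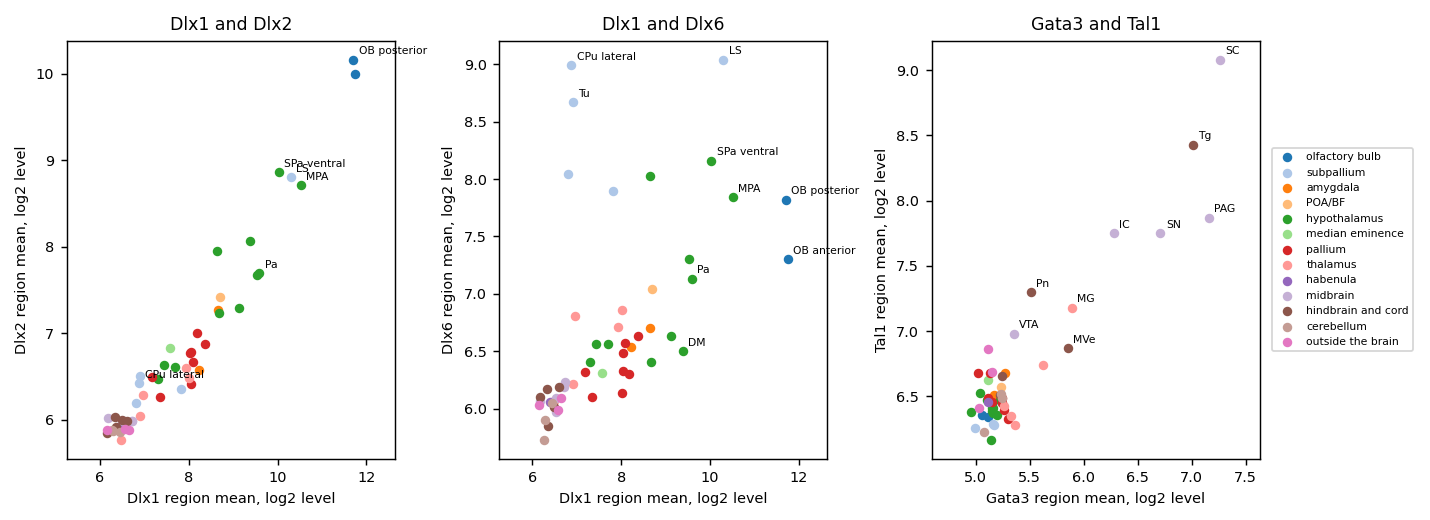
Region means (log2 level) of Dlx1 against Dlx2, Dlx1 against Dlx6, and Gata3 against Tal1, 52 regions each, coloured by division. Dlx1 and Dlx2 lie along 1 line (r = 0.96), while the lateral caudate putamen and the olfactory tubercle have high Dlx6 (8.99 and 8.67) at low Dlx1 (6.88 and 6.91).

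The genes most like each member were ranked by Pearson r over the 52 region means, among about 10029 genes that spanned at least 2-fold and whose highest region exceeded the median of all values, 7.39. Dlx2 was most like Dlx1, followed by Rhcg, an ammonium channel, at 0.745 and Dlx5 at 0.717. For Dlx2 the order was Dlx1 at 0.965, Rhcg at 0.776 and Dlx5 at 0.775. For Dlx5 the noncoding RNA Dlx6os1 came first at 0.859, then Dlx6 at 0.854. Dlx6os1 overlaps or adjoins Dlx6 in the annotation, and how strand was handled in the probe design is not given in the sources used here, so the 2 transcripts are reported with that limit.
Dlx6os1 did not follow Dlx6 closely, with r = 0.58. It read 9.29 in the anterior bulb and 8.33 in the tubercle but 6.84 in the lateral septum, rank 8, where Dlx6 ranked first. For Dlx6 the nearest were Dlx5 at 0.854, the receptor Gpr6 at 0.726 and the adenylyl cyclase Adcy5 at 0.715, both of which peaked in the medial caudate putamen. For Gata3 they were Tal1 at 0.924, then Tph2 at 0.647 and Slc6a4 at 0.639, the enzyme and transporter of serotonin neurons. For Tal1, compared among genes bright enough for the rule, which leaves out Gata3, they were Pax7, a paired-box factor of the dorsal midbrain, at 0.655, Irx2 at 0.589 and Barhl1 at 0.561. For Gata2 they were Rbpms at 0.874, Foxl2os at 0.866 and Spaca1 at 0.859, all highest in the pituitary.

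**Figure D4:**
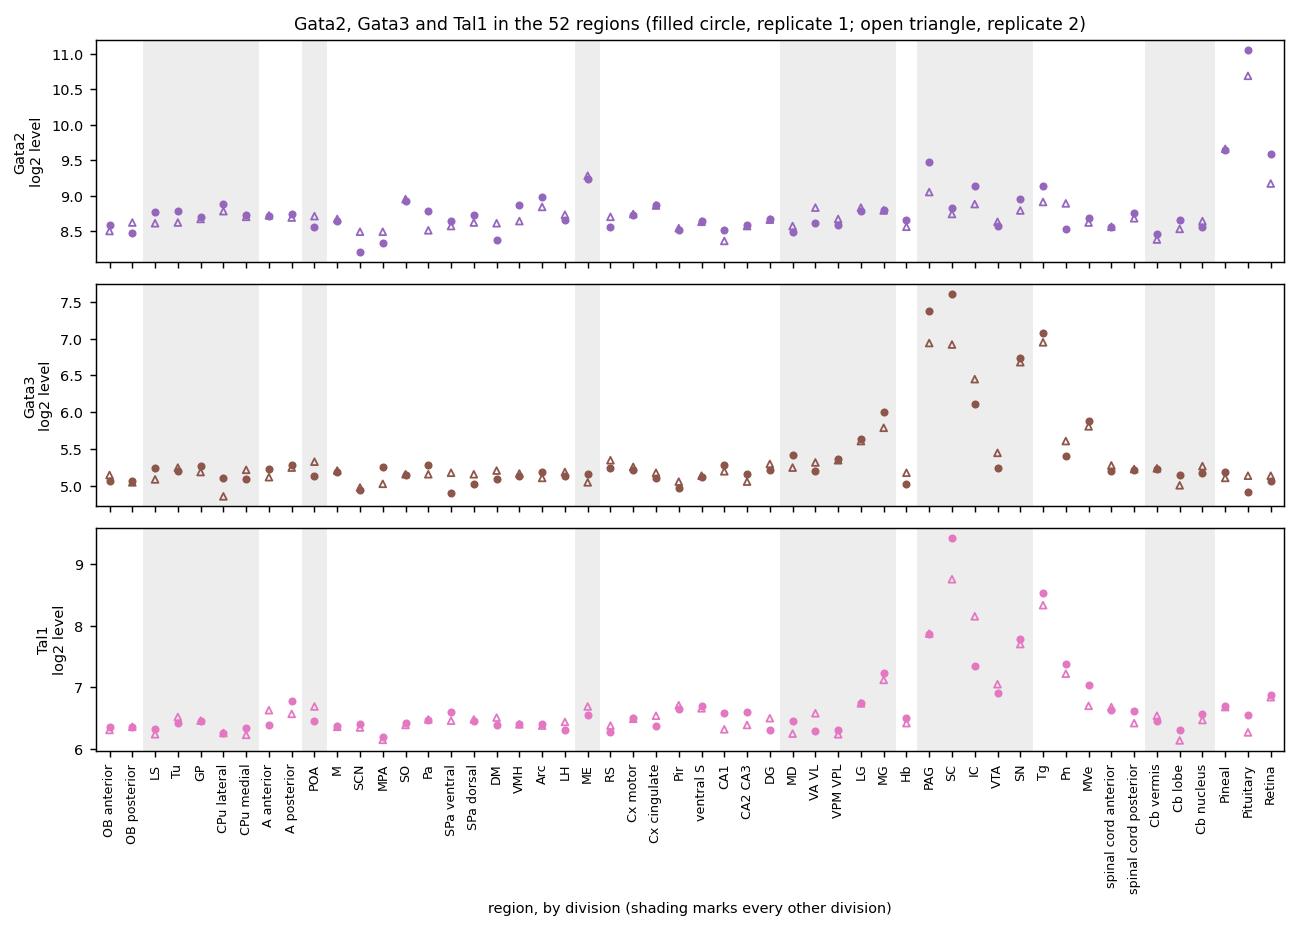
Log2 level of Gata2, Gata3 and Tal1 (y axes) in each of the 52 regions (x axis, grouped by division), with both arrays of a region as a filled circle and an open triangle. Gata3 and Tal1 peak in the superior colliculus at 7.26 and 9.08, and Gata2 in the pituitary at 10.87.

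Gata3 and Tal1 were highest in the same 5 regions, 4 of the midbrain and the dorsal tegmental nucleus. Gata3 read 7.60 and 6.92 in the superior colliculus, 7.38 and 6.94 in the periaqueductal gray and 7.07 and 6.95 in the dorsal tegmental nucleus, and neighbours in this order overlapped. It read 6.74 and 6.68 in the substantia nigra and 6.11 and 6.45 in the inferior colliculus, each apart from its neighbours. No region mean of Gata3 reached the median of all values, 7.39, so the gene is dim on these arrays. These 5 regions were the ones at least 1 unit above its median region of 5.21.

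Tal1 read 9.41 and 8.75 in the superior colliculus and 8.53 and 8.33 in the dorsal tegmental nucleus, 2 regions that did not overlap. The periaqueductal gray read 7.87 on both arrays and the substantia nigra 7.79 and 7.70, without overlap. The inferior colliculus, at 7.35 and 8.15, overlapped both of them and could not be ordered against either. The pontine nucleus at 7.3, the medial geniculate nucleus at 7.18, the ventral tegmental area at 6.98 and the medial vestibular nucleus at 6.87 followed. The spinal cord, where Gata3 and Tal1 mark V2b interneurons in development, read 6.66 and 6.51 for Tal1 and 5.24 and 5.22 for Gata3 in its anterior and posterior parts. All Tal1 arrays of the subpallium lay between 6.23 and 6.52.

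The midbrain (periaqueductal gray, both colliculi, ventral tegmental area, substantia nigra) was set against the subpallium. Gata3 rose by 1.40 ± 0.05 (2.63-fold, adjusted p = 1.98e-32, limma, 10 against 10 arrays) and Tal1 by 1.53 ± 0.06 (2.89-fold, adjusted p = 2.09e-31). Tal1 arrays did not overlap, at 6.91 to 9.41 against 6.23 to 6.52, while Gata3 arrays overlapped through the ventral tegmental area at 5.24 and 5.45. Both calls held with region means as the samples, with adjusted p of 0.0247 and 0.0182. Gata2 differed by 0.18 ± 0.05 and was not called.
The Dlx genes went the other way. Dlx6 fell by 2.42 ± 0.10, Dlx5 fell by 1.92 ± 0.06 and Dlx1 fell by 1.20 ± 0.08. Dlx2 differed by -0.86 ± 0.07, and by -1.03, past the threshold, without the medial caudate putamen. In the lateral septum Dlx2 was 8.80, while the other subpallial regions ran from 6.19 to 6.50, beside a midbrain mean of 5.99. With region means as the samples the adjusted p of Dlx2 was 0.239 (limma). The Dlx1 call rests on the lateral septum, since the difference was -0.57 without that region, and with region means as the samples its adjusted p was 0.228. In all, 2 members were called higher and 3 lower, where 2.06% of all genes were called higher and 1.69% lower.

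Of 21 other factors of midbrain, hindbrain and cord GABAergic lineages, 3 were called higher in the midbrain and none lower (list median 0.04, all genes 0.01). They were Otx2, by 2.27 ± 0.10, En1, by 1.98 ± 0.12, and En2, by 1.18 ± 0.07, which pattern the midbrain and are not specific to GABAergic neurons. Of 10 Tal1 complex partners, 1 was called, Lmo3, which fell by 1.11 ± 0.08 and was not called with region means as the samples. None of the 3 genes of GABA synthesis and release was called (median -0.62). Markers of medium spiny neurons were called lower in 6 of 6 cases, with a mean list level of 8.47 to 8.80 in the midbrain and 9.08 to 12.31 in the subpallium. Oligodendrocyte markers were called higher in 3 of 5 cases, at 11.62 to 12.47 against 9.65 to 12.33, and in none with region means as the samples. The part of both lists in the member differences was not tested.
Markers of blood and vessels were given beside Tal1 and Gata2, which act in those cells. None of 11 endothelial, 4 erythroid and 6 mast cell markers was called, and endothelial levels averaged 8.16 to 8.36 in the midbrain and 7.95 to 8.26 in the subpallium. In the superior colliculus, which led for Gata3 and Tal1, the endothelial, erythroid and mast cell lists ranked 13, 11 and 3 of 52.

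Serotonin neuron markers moved with Gata3 in part, and their part in the result was not tested. Tph2 read 11.38 and 10.11 in the periaqueductal gray and 10.83 and 10.40 in the dorsal tegmental nucleus. In the superior colliculus Tph2 read 4.62 and 4.53, in the substantia nigra 4.43 and 4.51 and in the inferior colliculus 4.51 and 4.50, close to the gene's median region of 4.50, while Gata3 was at 7.26, 6.71 and 6.28 there. Slc6a4 was likewise at 6.76, 6.69 and 6.64 in these 3 regions, against 11.19 in the periaqueductal gray.

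**Figure D5:**
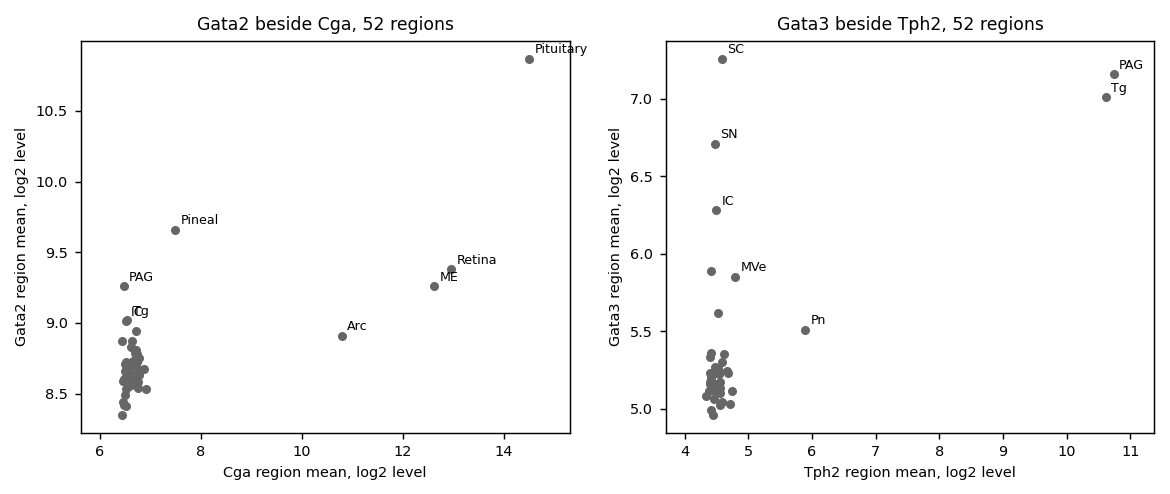
Region means (log2 level) of Gata2 against the pituitary hormone subunit Cga, left, and of Gata3 against the serotonin neuron enzyme Tph2, right, in the 52 regions. The superior colliculus has the highest Gata3 (7.26) at a Tph2 of 4.58, and the pituitary has both the highest Gata2 (10.87) and the highest Cga (14.49).

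The hindbrain and cord (dorsal tegmental, pontine and medial vestibular nuclei and 2 cord regions) were set against the midbrain, and no member was called. Gata3 differed by -0.78 ± 0.05 and Tal1 by -0.73 ± 0.06, both with an adjusted p under the threshold but short of 2-fold. The hindbrain was uneven, since the dorsal tegmental nucleus read 7.01 for Gata3 and 8.43 for Tal1 while the other 4 regions were at or below 5.85 and 7.3. Without that nucleus both genes were called lower, at -1.10 and -1.05. Within the regions with high hybridisation controls, which also lack that nucleus, both were called lower at -1.28 and -1.11. Within those of low controls, which hold it, the differences were -0.04 and -0.16. Without the ventral tegmental area Gata3 alone was called, at -1.09. Dlx1 at -0.15, Dlx2 at -0.04, Dlx5 at -0.01 and Dlx6 at -0.05 were low in both groups. The background was 0.187% of all genes called higher and 0.330% lower, and with region means as the samples 0 genes were called in limma, where 29 were higher and 42 lower at an unadjusted p under 0.05 and 2-fold.

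No region mean of the Gata2 probe set used lay below 7.39, the median of all values, whereas the second Gata2 probe set lay below it in 50 of 52 regions. The pituitary read 11.05 and 10.69, the pineal gland 9.65 and 9.66 and the retina 9.58 and 9.17. The periaqueductal gray at 9.47 and 9.05 and the median eminence at 9.23 and 9.28 followed, then the dorsal tegmental nucleus at 9.02 and the inferior colliculus at 9.01. The pituitary was the sole region at least 1 unit above the median region of 8.69. Lowest was the suprachiasmatic nucleus at 8.35.

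Against 49 regions of brain and cord, Gata2 rose in the pituitary by 2.18 ± 0.08 (4.52-fold, adjusted p = 7.73e-33, limma, 2 against 98 arrays). Its arrays did not overlap, at 10.69 and 11.05 against 8.20 to 9.47, and with region means as the samples the adjusted p was 2.03e-13. The second Gata2 probe set gave 1.67 for this comparison, and its region means correlated with the first at r = 0.94 (Spearman rho 0.8) over 52 regions. Dlx1 fell by 1.17 ± 0.13, a call that was lost with region means as the samples (adjusted p = 0.674), and Dlx2 at -0.93, Dlx5 at -0.71 and Dlx6 at -0.64 were short of 2-fold. Gata3 at -0.36 and Tal1 at -0.27 were not called. The background was 6.10% of all genes called higher and 7.24% lower.
Of 10 anterior pituitary markers 9 were called higher, among them Prl by 8.35 ± 0.10 and Cga, the shared subunit of thyrotropin and gonadotropins, by 7.67 ± 0.10. Of 11 endothelial markers 4 were called higher and 2 lower, with a list mean of 8.57 in the pituitary and 7.82 to 8.92 elsewhere. Of the 3 genes of GABA synthesis and release all were called lower, Gad1 by 5.02 ± 0.21.

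Pituitary transcripts were also present in other samples, of which the retina and median eminence were among the highest for Gata2. The arcuate nucleus was not, since no hypothalamic Gata2 array exceeded 8.98, beside a median region of 8.69. The part of these transcripts there was not tested. Cga read 12.95 in the retina, 12.62 in the median eminence and 10.79 in the arcuate nucleus, and Tshb, the thyrotropin subunit, 9.91, 10.67 and 9.61. In the pineal gland, second for Gata2, Cga was at 7.49 and Tshb at 6.93. In the periaqueductal gray and dorsal tegmental nucleus Cga was at 6.47 and 6.54, with Gata2 at 9.26 and 9.02. With the median eminence, arcuate nucleus and retina left out, the pituitary difference of Gata2 was 2.19.

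The level of the hybridisation controls differed between regions, so the differences were also taken within each set of regions where both groups had a region. Within the low set Dlx1, Dlx2, Dlx5 and Dlx6 were higher in the olfactory bulb than in the pallium by 3.79, 3.28, 2.33 and 1.21. Within the high set Dlx5 and Dlx6 were higher in the subpallium than in the pallium by 1.47 and 2.16, and Dlx1 and Dlx2 higher in the hypothalamus than in the thalamus by 1.49 and 1.06. Within that set the midbrain differed from the subpallium by 1.56 for Gata3, 1.44 for Tal1, -1.86 for Dlx5 and -2.43 for Dlx6. The pituitary difference of Gata2 was 2.24 within the low set, where Dlx2, at -1.24, was also called lower. For Gata3 and Tal1 in the hindbrain and cord against the midbrain the low set gave -0.04 and -0.16, which compares the dorsal tegmental and pontine nuclei with the superior colliculus and ventral tegmental area.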

How the data were processed

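The authors deposited 1 table of log2 expression values for 104 Affymetrix arrays (52 mouse regions, 2 arrays each), made with RMA per the submitters' processing notes, with no version given. Per the labels, RNA pooled over 1 day was labelled in 1 cycle. Of 45101 probe sets, 34945 carried a single symbol in the platform annotation, 932 several, 9160 none listed, and 64 were controls. The brightest single-symbol probe set over all arrays stood for a gene, giving 18193 genes, and the deposited values were used unchanged.

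Differences were tested with limma 3.58.1 in R 4.3.3, with 1 mean per region and Benjamini-Hochberg adjustment over all genes. A call needed an adjusted p under 0.05 and a difference, or for the F test a range, of at least 1 log2 unit. Data were simulated for the subpallium against the pallium, with 18193 genes, 100 shifted up and 100 down by 1.5 log2 units. The fit called all 100 and 100, and 1 other gene. Apart from the shifts, each simulated gene had the same mean in all regions, with noise from the spread within array pairs. How calls fare under spread among the regions of a group was therefore not tested by the simulation. Array number limits the precision, and the depth of arrays is not a read count.

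The members and the gene lists were chosen with earlier results of these data known, so list counts are descriptions. Listed genes without a single-symbol probe set were not analysed here. Genes named were the 7 members, the 3 genes most correlated with each (Pearson r over region means, range of at least 1, highest region above the median of all values, no provisional names), and up to 4 called members per list. Deviations of same-numbered arrays had a median correlation of 0 (from -0.5 to 0.52, over 0.1 in 24.7% of pairs). They showed no effect common to all arrays of a number, so no block was used in the main design. Batches shared by only some regions were not tested. Alternatives covered normalization, filter, probe sets, variance model, block, threshold and left-out arrays or regions; 2 were chosen after seeing the data. Promoter sequences came from RefSeq (GRCm38.p6).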

Additional observations from a re-analysis of the deposited data

Results flagged for a closer look

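Among 35 combinations of a gene and a group of 5 or 8 regions, 3 region means had a gap to the nearest other region that was large for the range of their group, and chance gives about 1 in 20. Dlx2 was 8.80 in the lateral septum, where the other 4 subpallial regions ran from 6.19 to 6.50. Gata2 was 8.83 in the lateral caudate putamen, where the other 4 ran from 8.68 to 8.71. The second Gata2 probe set did not set that region apart, at 6.74 beside 6.81 in the globus pallidus and 6.73 in the medial caudate putamen. Dlx2 was 6.02 in the superior colliculus, where the other 4 midbrain regions ran from 5.98 to 5.99, a small gap, and its own arrays read 5.87 and 6.17, on either side of them.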

How the results depend on the processing

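Of 1241 counts of called members under alternatives, 1214 stayed within 1.5 times the main count, and of 4737 values of single members, 4670 kept their direction and side of the threshold, 41 were newly called, 5 lost their call and 21 changed sign, none of them of a called difference. With dim genes left out, 1 member was called higher in the midbrain against the subpallium, since Gata3 was not tested. Without the fold threshold, 1 member was lower in the subpallium against the pallium, 4 higher and 2 lower in the hypothalamus against the thalamus, 3 lower in the hindbrain and cord against the midbrain, 6 lower in the pituitary and 3 higher in the POA/BF. For these counts the share of all genes passing was not computed. With region means as the samples, 0 members were lower in the pituitary, against a main count of 1 (limma). Within regions of low hybridisation controls, 2 were lower in the pituitary. Within those of high controls, 2 were lower in the hindbrain and cord. The POA/BF, in neither set, was compared with the regions of each, and 1 member was higher against those of high controls. Leaving out 1 array or region gave 0 to 1 called higher in the POA/BF (1 without its second array) and 0 to 2 called lower in the hindbrain and cord. Apart from the array or regions removed, the causes were not tested. In the hindbrain and cord against the midbrain, Dlx5 differed by 0.06 and Gata2 by 0.17 within low controls, and in the hypothalamus against the thalamus Gata2 by 0.02 within high controls, each with its sign turned. Leaving out 1 array or region also turned signs. The values ran from -0.81 to 0.07 for Dlx1, from -0.29 to 0.36 for Dlx2 and from -0.05 to 0.01 for Gata3 in the subpallium against the pallium. They ran from -0.24 to 0.33 for Dlx1 and from -0.01 to 0.04 for Gata2 between the geniculate regions, and from -0.22 to 0.01 for Tal1 in the POA/BF. In the hindbrain and cord they ran from -0.10 to 0.01 for Dlx2, from -0.05 to 0.06 for Dlx5 and from -0.08 to 0.01 for Dlx6. The 2 alternatives chosen after seeing the data, without the regions in doubt and without those holding pituitary transcripts, changed none of the calls in the comparisons they touch.

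With the replicate number as a block, Dlx1 in the olfactory bulb differed by 3.82 and Gata2 in the pituitary by 2.18, and no call changed. Region means gave no value for the lateral against the medial geniculate, with 1 region each, or for the test over all regions, and the control sets none where a group had no region. Array number and signal over background limit the precision, above all for Gata3.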
